A study of Homo sapiens with 8 samples.

Results

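Immediate early, AP-1 and YAP target genes were followed through RNA-seq of SW1990 cells, an established human pancreatic adenocarcinoma cell line. The set holds 36 named genes of the 38637 genes listed, taken by symbol. It was divided by the known role of each gene into 22 growth-factor-type genes, 9 AP-1 genes and 5 YAP-type genes. The set, its classes and the lists used later were chosen with earlier results of these data known. Shares and medians of the set therefore describe it and are no independent test. The study profiled cells carrying an empty vector (Vector), cells overexpressing the transcription factor EBF2 (EBF2-OE), cells given vehicle (Vehicle) and cells given GSK-LSD1, which inhibits the histone demethylase KDM1A, with 2 libraries each. Both manipulations were meant to show how transcription responds when EBF2 or the enhancer mark H3K4me1 is raised. The titles give 2000 µM as the GSK-LSD1 dose. That is more than the amounts named in the study for its immunoblots of cells given this compound, and the unit in the titles could not be checked. The titles name SW1990 for every group, whereas a figure legend of the study names SW1990-luc, its luciferase-labelled form, for the RNA-seq. The promoter that drives EBF2, the clonality of the cells and the treatment time are not given in the sources used here. In the titles, Vector and EBF2-OE have libraries 2 and 3, whereas Vehicle and GSK-LSD1 have 1 and 2. No source used here says what a number stands for or whether the libraries came from separate cultures, so the p-values measure only the spread between these libraries.

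Immediate early genes are switched on within minutes of growth factor or stress signalling, before any new protein is made. Many carry serum response elements, to which SRF binds with its partners, and their short transcripts are quickly degraded. FOS and JUN family proteins pair to form AP-1, which binds its own DNA motif, while YAP and TAZ are coactivators held in check by the Hippo kinases and reach DNA through TEAD factors. CCN1, CCN2, ANKRD1, AMOTL2 and LATS2 are widely used as YAP and TAZ targets, and CCN1 and CCN2 also answer to serum.

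The promoters below include those of EGR1, FOSB, CCN2 and EGR2, which differed most between library numbers among the genes with a promoter at hand. NR4A3 was added, which also differed and held a TEAD motif. FOS, KLF2, NR4A1 and ATF3 differed more than NR4A3, held no such motif and are not shown. The promoter of JUND, called in the GSK-LSD1 comparison, completes those shown. Each is the 250 bases before the first-listed start site of the gene, 5′ to 3′ on its own strand, from RefSeq on GRCh38.p14. Other start sites and bases further upstream were not searched. Capitals mark a match, on either strand, to the CArG box of SRF, to TGACGTCA (the CREB and ATF element), to TGANTCA (the AP-1 element), to GGAATG (the TEAD element) or to GCGGGGGCG (the EGR element). No 2 of these motifs overlapped in the promoters shown.
EGR1: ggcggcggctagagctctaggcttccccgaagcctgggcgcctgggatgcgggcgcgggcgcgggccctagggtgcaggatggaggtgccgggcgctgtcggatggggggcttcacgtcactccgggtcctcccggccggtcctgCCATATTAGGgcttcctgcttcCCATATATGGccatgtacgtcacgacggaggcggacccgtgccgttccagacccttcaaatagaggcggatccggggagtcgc
FOSB: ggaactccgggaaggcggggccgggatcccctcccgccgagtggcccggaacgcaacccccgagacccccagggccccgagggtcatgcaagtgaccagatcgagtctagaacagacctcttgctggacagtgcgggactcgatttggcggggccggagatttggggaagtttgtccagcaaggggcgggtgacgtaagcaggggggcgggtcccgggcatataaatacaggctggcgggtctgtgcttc
CCN2: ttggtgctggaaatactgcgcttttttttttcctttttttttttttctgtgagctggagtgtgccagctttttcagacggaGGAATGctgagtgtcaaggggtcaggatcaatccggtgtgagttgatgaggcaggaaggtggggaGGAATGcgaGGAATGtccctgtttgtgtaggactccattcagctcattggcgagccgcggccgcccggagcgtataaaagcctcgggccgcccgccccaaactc
EGR2: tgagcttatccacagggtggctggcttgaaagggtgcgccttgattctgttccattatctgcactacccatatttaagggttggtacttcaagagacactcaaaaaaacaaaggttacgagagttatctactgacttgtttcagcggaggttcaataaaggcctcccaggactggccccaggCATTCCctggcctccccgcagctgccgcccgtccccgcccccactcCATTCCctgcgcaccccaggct
NR4A3: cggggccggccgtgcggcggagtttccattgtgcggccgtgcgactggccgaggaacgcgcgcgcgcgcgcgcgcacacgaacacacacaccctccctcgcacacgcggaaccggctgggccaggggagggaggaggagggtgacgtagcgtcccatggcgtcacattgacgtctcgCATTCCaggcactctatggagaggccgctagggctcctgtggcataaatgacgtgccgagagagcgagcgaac
JUND: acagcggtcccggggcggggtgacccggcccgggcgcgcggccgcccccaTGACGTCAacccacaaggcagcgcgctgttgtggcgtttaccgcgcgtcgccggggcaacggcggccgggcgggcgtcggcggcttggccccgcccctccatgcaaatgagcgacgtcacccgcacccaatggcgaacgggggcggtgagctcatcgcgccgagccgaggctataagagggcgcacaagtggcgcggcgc
They lie at chr5:138465229-138465478 (EGR1), chr19:45467746-45467995 (FOSB), chr6:131951373-131951622 (CCN2), chr10:62819168-62819417 (EGR2), chr9:99821635-99821884 (NR4A3) and chr19:18281623-18281872 (JUND). Counted back from the start site to the first base of a match, EGR1 held 2 CArG boxes, at -105 and -83. CCN2 held 3 TEAD motifs, at -169, -104 and -95, EGR2 held 2 at -68 and -22, and NR4A3 held 1 at -73. JUND held TGACGTCA at -200, and no match was found in the FOSB window. Promoters were available for 28 of the 36 genes, all except EGR3, KLF10, MYC, ARC, CCN1, FOSL1, IER3 and NR4A2. Of all 27305 promoters, 1.14% held a CArG box, as did 0.944% of the 11649 promoters of genes tested here, and among the 28 it was in EGR1 and SRF. TGACGTCA was in 1.77% of all promoters, 2.83% of those of tested genes, and in DUSP1, JUND and MAFF. TGANTCA was in 6.60% of all promoters, 4.16% of those of tested genes, and in ANKRD1 alone among the 28. GGAATG was in 11.9% of all promoters, 9.78% of those of tested genes, and in 5 of the 28, namely CCN2, ANKRD1, NR4A3, EGR2 and ZFP36. GCGGGGGCG was in 4.68% of all promoters, 7.48% of those of tested genes, and in SRF, KLF6, GADD45B and KLF2. A match describes letters only and is no measure of binding.

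The libraries held 20453362 to 27054876 counts on genes, and the 36 genes took between 0.211% and 0.490% of them. Counts of EBF2, the check of the labels, were 5818 in EBF2-OE 2 and 90100 in EBF2-OE 3, against 28 in either Vector library. The epithelial markers KRT7, KRT8, KRT18 and MUC1 were abundant, whereas EPCAM (4 to 20 counts), CDH1 (7 to 57) and KRT19 (0 to 21) were near 0 in every library. CD3E was at 0 and KDR at 0 or 1 count, while the fibroblast gene COL1A1 had 1419 to 2299 counts. The libraries of a group differed by more than counting error in all groups, so none was treated as a copy.

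In TPM, which is scaled by transcript length, the set spanned more than 4 orders of magnitude on the plot of levels by library. MYC, the growth-promoting transcription factor, was among the more abundant genes at 109 to 264 TPM. IER3, a stress-inducible survival factor, had 132 to 319 TPM, and JUNB, an AP-1 subunit, had 63.6 to 425 TPM. DUSP1, the phosphatase that switches off MAP kinases, stayed between 123 and 180 TPM. RHOB, a short-lived GTPase, lay between 119 and 205 TPM. At the other end, EGR2, EGR3 and EGR4 stayed at or below 1.52 TPM, and EGR3 was at 0 in both GSK-LSD1 libraries. ANKRD1, a muscle-type YAP target, had 0.0726 to 2.33 TPM. In bulk RNA, a lower level per cell and fewer expressing cells cannot be told apart.

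**Figure D1:**
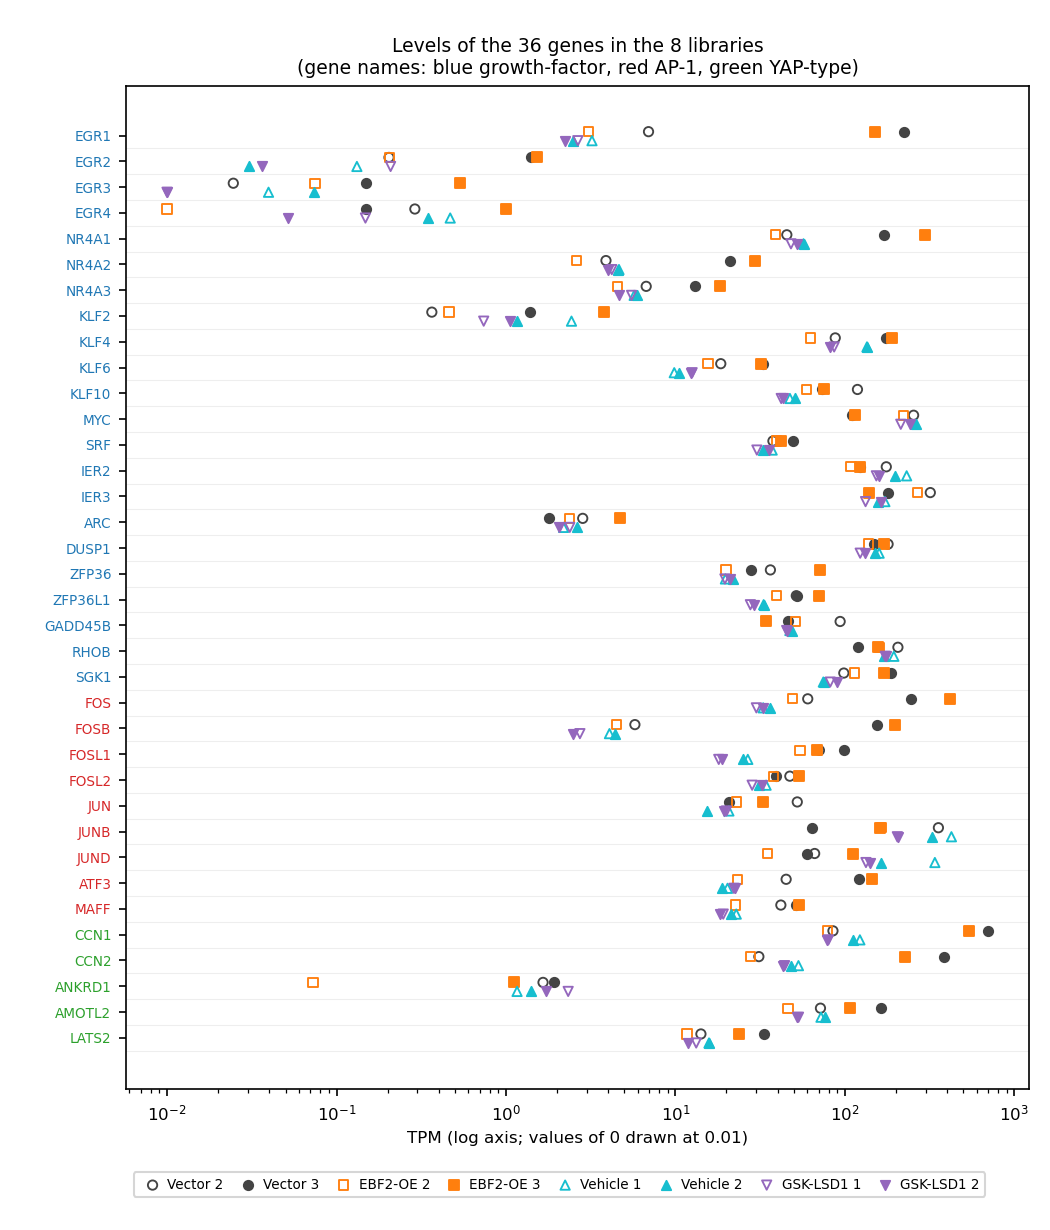
TPM (log axis) of each of the 36 genes in each of the 8 libraries, with open and filled symbols for the lower and higher library number of a group. EGR1 (225 and 150 TPM) and FOSB (154 and 197 TPM) lie far higher in Vector 3 and EBF2-OE 3 than in the other 6 libraries, whose highest values are 6.93 and 5.76 TPM.

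Libraries numbered 3 were set against libraries numbered 2 across the Vector and EBF2-OE groups, which asks how far libraries of 1 group lay apart. EGR1, EGR2, the 3 NR4A genes, FOS, FOSB, ATF3 and 4 of the 5 YAP-type genes were among those higher in the libraries numbered 3, and MYC, IER3 and GADD45B were lower. Of the 34 genes of the set with enough counts to test (all but EGR3 and EGR4), 16 were higher and 3 were lower in the libraries numbered 3, at a fold above 1.5 and an adjusted p-value under 0.05. Across all 15560 genes tested, 1.77% were called in either direction, 1.10% higher and 0.668% lower. The median log2 fold change was 0.79 in the set and 0.01 over all genes. The median of the YAP-type genes was 1.24, that of the AP-1 genes 0.79 and that of the growth-factor-type genes 0.62. The set median includes EGR2, KLF2 and ANKRD1, which entered the test only through the libraries numbered 3. The growth-factor-type median includes EGR2 and KLF2, and the YAP-type median includes ANKRD1.

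EGR1, a zinc-finger factor induced through its CArG boxes, had 169 counts in Vector 2 and 74 in EBF2-OE 2, against 6348 in Vector 3 and 4038 in EBF2-OE 3. Both libraries numbered 3 were far above both numbered 2, and the groups did not overlap. Such a gap was seen for 20 of the 34 genes of the set upward and 5 downward. Over all 15560 genes tested it was seen for 3565 upward and 3472 downward. The mean was 5.79 ± 3.06 CPM at number 2 and 223 ± 61.2 at number 3 (SD, n = 2 libraries), a log2 fold change of 5.32 (SE 0.19, edgeR adjusted p = 2.77e-06). EGR2 had 5 counts in each library numbered 2 and 40 and 41 in those numbered 3. Its log2 fold change was 2.84 (SE 0.51, edgeR adjusted p = 0.0236). EGR2, KLF2 and ANKRD1 reached the count minimum in fewer than 2 of the libraries numbered 2, so they entered the test only through those numbered 3, and without EGR2 and KLF2 14 genes were higher. EGR3 had 1, 7, 3 and 24 counts and EGR4 had 5, 3, 0 and 19 counts in Vector 2, Vector 3, EBF2-OE 2 and EBF2-OE 3, too few for a test.

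The NR4A orphan nuclear receptors, which need no known ligand, rose together. NR4A1 had 2835 and 2406 counts at number 2 against 12307 and 20432 at number 3 (Vector first, as in the sentences that follow). NR4A2 had 107 and 71 against 666 and 889, and NR4A3 had 375 and 251 against 849 and 1121. In all of them the EBF2-OE library was the higher of the pair at number 3 and the lower at number 2. The log2 fold changes were 2.45 for NR4A1, 2.97 for NR4A2 and 1.51 for NR4A3 (SE 0.23, 0.24 and 0.22), with edgeR adjusted p-values of 8.02e-04, 4.12e-04 and 0.00911. The antisense gene NR4A1AS, which overlaps NR4A1 on the opposite strand, had 137 and 100 counts at number 2 and 533 and 804 at number 3. No strand setting is given for the counting, so reads of this pair cannot be told apart.

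The Krueppel-like factors, zinc-finger regulators of proliferation and differentiation, were higher for 3 of 4. KLF4 had 2069 and 1459 counts at number 2 and 4789 and 4943 at number 3, and KLF6 had 660 and 549 against 1353 and 1262. KLF2 was scarce, with 8 and 10 against 35 and 92 counts, and entered the test only through the libraries numbered 3. The log2 fold changes were 2.57 for KLF2 (SE 0.45), 1.33 for KLF4 (SE 0.16) and 0.97 for KLF6 (SE 0.14), with edgeR adjusted p-values of 0.0214, 0.00391 and 0.00953. KLF10, a TGF-beta-inducible repressor, was not called, at -0.15 (SE 0.21).

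Of the AP-1 genes, FOS, FOSB and ATF3 were called, and none of JUN, JUNB and JUND was. FOSB had 169 and 130 counts at number 2 and 5227 and 6360 at number 3, and FOS had 986 and 793 against 4655 and 7463. For both, the libraries numbered 3 lay well above those numbered 2. FOSB rose from 7.16 ± 1.12 to 252 ± 45.4 CPM (SD, n = 2 libraries), with a log2 fold change of 5.12 (SE 0.20, edgeR adjusted p = 3.47e-06), and FOS had 2.59 (SE 0.23, edgeR adjusted p = 5.34e-04). ATF3, a stress-induced partner of JUN proteins, had 1285 and 655 counts against 4001 and 4573, a log2 fold change of 2.06 (SE 0.24, edgeR adjusted p = 0.00307). FOSL1 (0.45, SE 0.14) and FOSL2 (0.15, SE 0.18), the remaining FOS family subunits, were not called, nor was the small MAF protein MAFF (0.80, SE 0.20, edgeR adjusted p = 0.103).

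JUNB had 5062 counts in Vector 2 but 1049 in Vector 3, and the EBF2-OE pair had 2318 and 2529. Only the Vector pair was apart, and the log2 fold change of -1.22 (SE 0.44) had an edgeR adjusted p-value of 0.270. JUN had 1324 and 604 counts in Vector 2 and 3 and 577 and 912 in EBF2-OE 2 and 3, so its pairs ran in opposite directions (log2 fold change -0.39, SE 0.34). JUND was near level in Vector, at 993 and 1032 counts, and had 520 and 1855 in EBF2-OE (log2 fold change 0.79, SE 0.34, edgeR adjusted p = 0.361). The summed TPM of the 4 FOS family genes was 184 and 146 at number 2 and 538 and 733 at number 3, while that of the 3 JUN genes was 475 and 223 against 144 and 306.

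Of the 5 YAP-type genes, 4 rose. CCN2 (connective tissue growth factor) had 564 and 500 counts at number 2 and 8053 and 4536 at number 3. CCN1, a related secreted matrix protein, had 1504 and 1383 against 14331 and 10524. These were among the largest differences of the set, with no overlap between the numbers. A lack of overlap in this direction was found for 3565 of all 15560 genes. CCN2 went from 25.5 ± 1.43 to 270 ± 96.1 CPM and CCN1 from 69.3 ± 2.08 to 536 ± 93.7 CPM (SD, n = 2 libraries), with log2 fold changes of 3.36 (SE 0.18) and 2.94 (SE 0.16) and an edgeR adjusted p-value of 3.30e-05 for both. AMOTL2, an angiomotin that binds YAP, had 3105 and 1975 against 8221 and 5095 counts, and LATS2, the Hippo kinase that phosphorylates YAP, had 672 and 552 against 1829 and 1242. Their log2 fold changes were 1.24 (SE 0.13) and 1.16 (SE 0.15), with edgeR adjusted p-values of 0.00207 and 0.00422. ANKRD1 had 23, 31, 1 and 17 counts in Vector 2, Vector 3, EBF2-OE 2 and EBF2-OE 3 and was not called (1.14, SE 0.68). By fold among all 171 genes called higher, EGR1 ranked 2, FOSB 3, CCN2 8 and CCN1 13.

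Of the remaining growth-factor-type genes, SGK1 was higher and MYC, IER3 and GADD45B were lower. SGK1, a serum-inducible kinase, had 2875 and 3295 counts at number 2 and 6325 and 5452 at number 3, a log2 fold change of 0.78 (SE 0.15, edgeR adjusted p = 0.0304). MYC had 8922 and 7677 counts against 4457 and 4444, and IER3 had 3065 and 2553 against 2004 and 1476. Both were lower in each library numbered 3 than in either numbered 2, as were 3472 of all 15560 genes. MYC fell by 1.05 (SE 0.14), IER3 by 0.85 (SE 0.13) and GADD45B, a DNA-damage- and stress-inducible protein, by 0.77 (SE 0.16) on the log2 scale, with edgeR adjusted p-values of 0.00607, 0.0130 and 0.0452. IER3-AS1, which overlaps IER3 on the opposite strand, had 516 and 427 counts at number 2 and 385 and 270 at number 3. SRF, IER2, ARC, DUSP1, ZFP36, ZFP36L1 and RHOB were not called, with log2 fold changes from -0.38 (RHOB) to 0.77 (ZFP36, SE 0.40). Among them DUSP1 and the mRNA-decay proteins ZFP36 and ZFP36L1 attenuate the immediate early response.

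The fit has 1 residual degree of freedom per gene, so its spread is borrowed largely from other genes. The total of 19 calls was 16 with DESeq2 (14 higher and 2 lower), which gave no adjusted p-value for EGR2 and KLF2, and 16 to 22 over the adjusted and unadjusted alternatives. GADD45B was not called with DESeq2 or without the group term, nor KLF2 without the group term. Other measures moved with the number too. The mitochondrial share of counts was 0.744% and 0.886% at number 2 and 1.08% and 1.04% at number 3 (Vector first), the nuclear RNA NEAT1 fell by 1.07 on the log2 scale (edgeR adjusted p = 0.0175), and EBF2 itself was higher in EBF2-OE 3 than in EBF2-OE 2 but equal in the Vector pair. Their part in the result was not tested.

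The difference was also read within each group, without a test, since each pair is 1 library against 1. Vector 3 was over 1.5-fold above Vector 2 for 16 of the 34 genes and below it for 7, against 6.14% and 9.61% of all genes. EBF2-OE 3 was over 1.5-fold above EBF2-OE 2 for 22 and below it for 2, against 12.2% and 5.69%. No library is shared between these pairs. The genes above 1.5-fold in both pairs numbered 16, or 47.1% of the 34 against 3.44% of all genes: EGR1, EGR2, NR4A1, NR4A2, NR4A3, KLF2, KLF4, KLF6, SGK1, FOS, FOSB, ATF3, CCN1, CCN2, AMOTL2 and LATS2. MYC and IER3 were lower in both. EGR2 and KLF2, among the 16, and ANKRD1, among the 34, passed the count minimum only through the libraries numbered 3. The share of 47.1% includes them.

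**Figure D2:**
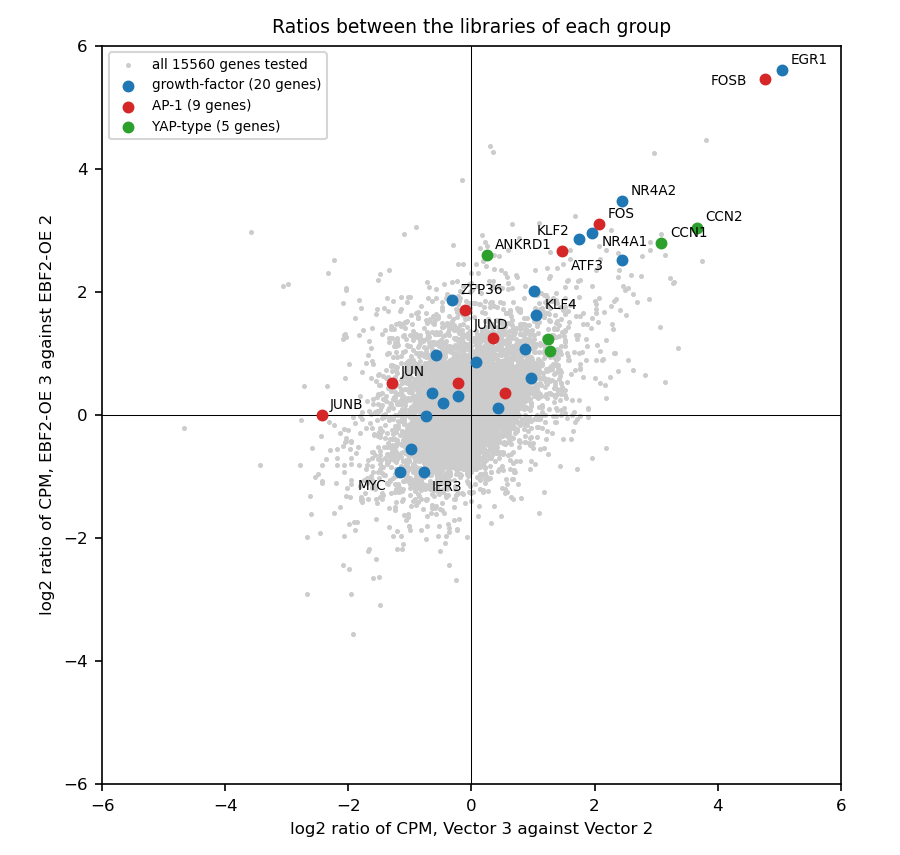
Log2 ratio of CPM between the libraries of the Vector pair (horizontal) and of the EBF2-OE pair (vertical), for the 34 tested genes of the set by class and for all genes tested (grey). EGR1 and FOSB lie near the top right corner, JUNB far to the left at the level of 0 on the vertical axis, and MYC and IER3 at lower left.

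Across the 34 genes the log2 ratios of the pairs had a Pearson correlation of 0.88 and a Spearman correlation of 0.86, and 76.5% had 1 sign in both pairs. Across all 15560 genes the values were 0.35, 0.26 and 57.0%. Genes are not independent replicates, and these figures describe 4 libraries. The 34 genes include EGR2, KLF2 and ANKRD1, which entered only through the libraries numbered 3. EGR1 differed by 5.05 in Vector and by 5.60 in EBF2-OE, and FOSB by 4.77 and 5.46. CCN2 and CCN1 ran the other way, with 3.67 and 3.09 in Vector and 3.04 and 2.79 in EBF2-OE. AMOTL2 had nearly equal ratios, 1.24 and 1.23. Ratios were wider in EBF2-OE for FOS (2.07 and 3.10), NR4A1 (1.95 and 2.95), NR4A3 (1.01 and 2.02) and ANKRD1 (0.25 and 2.60). Whether a ratio differs between the groups could not be tested with 1 library in each cell.

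The libraries of the GSK-LSD1 experiment showed no such split. Vehicle 2 differed from Vehicle 1 by over 1.5-fold for 2 of 33 genes, JUND (log2 ratio -1.08) and KLF2 (-1.05), against 5.64% of all genes. GSK-LSD1 2 differed from GSK-LSD1 1 by that much for 0 of 33, against 5.67% of all genes. Over all 8 libraries, TPM in both libraries numbered 3 exceeded the other 6 for 18 of the 34 genes, against 10.2% of all genes. It lay below the other 6 for 3 of the 34, JUNB, MYC and RHOB, a share no larger than the 11.0% of all genes. JUNB (161 TPM in EBF2-OE 3, 165 in EBF2-OE 2) and RHOB (156 and 160) were near level in the EBF2-OE pair. SRF, ZFP36L1 and MAFF were among the 18 although their difference between the numbers was not called. EGR2, also among the 18, entered the test only through the libraries numbered 3.

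Pathway genes outside the set were grouped in lists by their known roles. None of 17 Hippo pathway and TEAD genes, 13 targets of SRF and its MRTF cofactors, 5 SRF cofactors, 6 further AP-1 partners and 8 heat shock genes was called between libraries numbered 3 and 2. Across all genes 1.77% were called, so a lack of calls in lists this small does not set them apart. Against 1.10% higher and 0.668% lower over all genes, 0 of 17 further YAP targets were higher and 2 were lower. These were IGFBP3, an IGF-binding protein with 7686 and 7737 counts at number 2 and 4630 and 3753 at number 3, and NT5E, the ectonucleotidase CD73. Their log2 fold changes were -1.04 (SE 0.14) and -1.14 (SE 0.17). The median over these 17 targets was 0.09, against 1.24 for the 5 YAP-type genes of the set. Those 5 include ANKRD1, which entered the test only through the libraries numbered 3.

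Of 11 genes of ERK feedback, DUSP5, a phosphatase of nuclear ERK, was the only one called, higher at 1.24 (SE 0.14). Most of that list went the other way, with 3 of 11 values above 0 and a median of -0.34. Of 6 EGF receptors and ligands, AREG, an EGF receptor ligand, was higher at 1.25 (SE 0.21), with 106 and 87 counts at number 2 and 317 and 200 at number 3. Of 11 AP-1 targets, 1 was lower, the urokinase receptor gene PLAUR, at -1.06 (SE 0.14). None of 5 epithelial, 4 fibroblast, 2 leukocyte and 1 endothelial markers tested was called, against 1.77% of all genes. HSPA1A, an inducible chaperone, had 4615 counts in EBF2-OE 3 and 2125 to 2292 in the other libraries of these groups.

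Genes of the set called higher spanned a median of 7.74 kb (n = 16), those called lower 2.13 kb (n = 3) and those not called 4.50 kb (n = 15). All genes called higher spanned a median of 16.2 kb (n = 171) and all protein-coding genes tested 30.2 kb (n = 13001).

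Under GSK-LSD1, 3 of 9 AP-1 genes and KLF4 were called lower. Of 33 genes tested against Vehicle (all but EGR2, EGR3 and EGR4), 0 were higher and 4 were lower, against 4.57% of all 16059 genes called, 2.53% higher and 2.04% lower. JUNB, JUND, FOSB and KLF4 were the 4. Of the other AP-1 genes, JUN (0.17, SE 0.13) and ATF3 (0.22, SE 0.08) had values above 0 and were not called. The median log2 fold change was -0.16 in the set and -0.01 over all genes. Both GSK-LSD1 libraries lay below both Vehicle libraries for 20 of the 33 genes and above them for 4, against 30.2% and 30.0% of all genes.

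JUNB had 7475 and 6182 counts in Vehicle, against 3402 and 3301 under GSK-LSD1. The groups were well apart, at 265 ± 53.9 and 148 ± 1.76 CPM (SD, n = 2 libraries). The log2 fold change was -0.84 (SE 0.10, edgeR adjusted p = 4.28e-04). KLF4, a factor of epithelial differentiation and stemness, had 3939 and 4253 counts in Vehicle, against 2393 and 2186 under GSK-LSD1. Its level went from 158 ± 2.62 to 101 ± 5.50 CPM (SD, n = 2 libraries), a log2 fold change of -0.64 (SE 0.05, edgeR adjusted p = 3.80e-05). FOSB had 148 and 172 counts against 94 and 82, a log2 fold change of -0.66 (SE 0.15, edgeR adjusted p = 0.0125).

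JUND, whose promoter above holds TGACGTCA, had 6292 and 3295 counts in Vehicle and 2341 and 2363 under GSK-LSD1. Vehicle 1 stood apart from the other 3 libraries. The log2 fold change was -0.85 (SE 0.24, edgeR adjusted p = 0.0323), and without Vehicle 1 it was -0.22 and below the fold limit. KLF2, an endothelial-type Krueppel-like factor, had 66 and 34 counts against 19 and 26 and was not called (-0.96, SE 0.39, edgeR adjusted p = 0.110). ANKRD1 had 20 and 26 counts against 38 and 27 and was not called either (0.69, SE 0.32, edgeR adjusted p = 0.159).

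**Figure D3:**
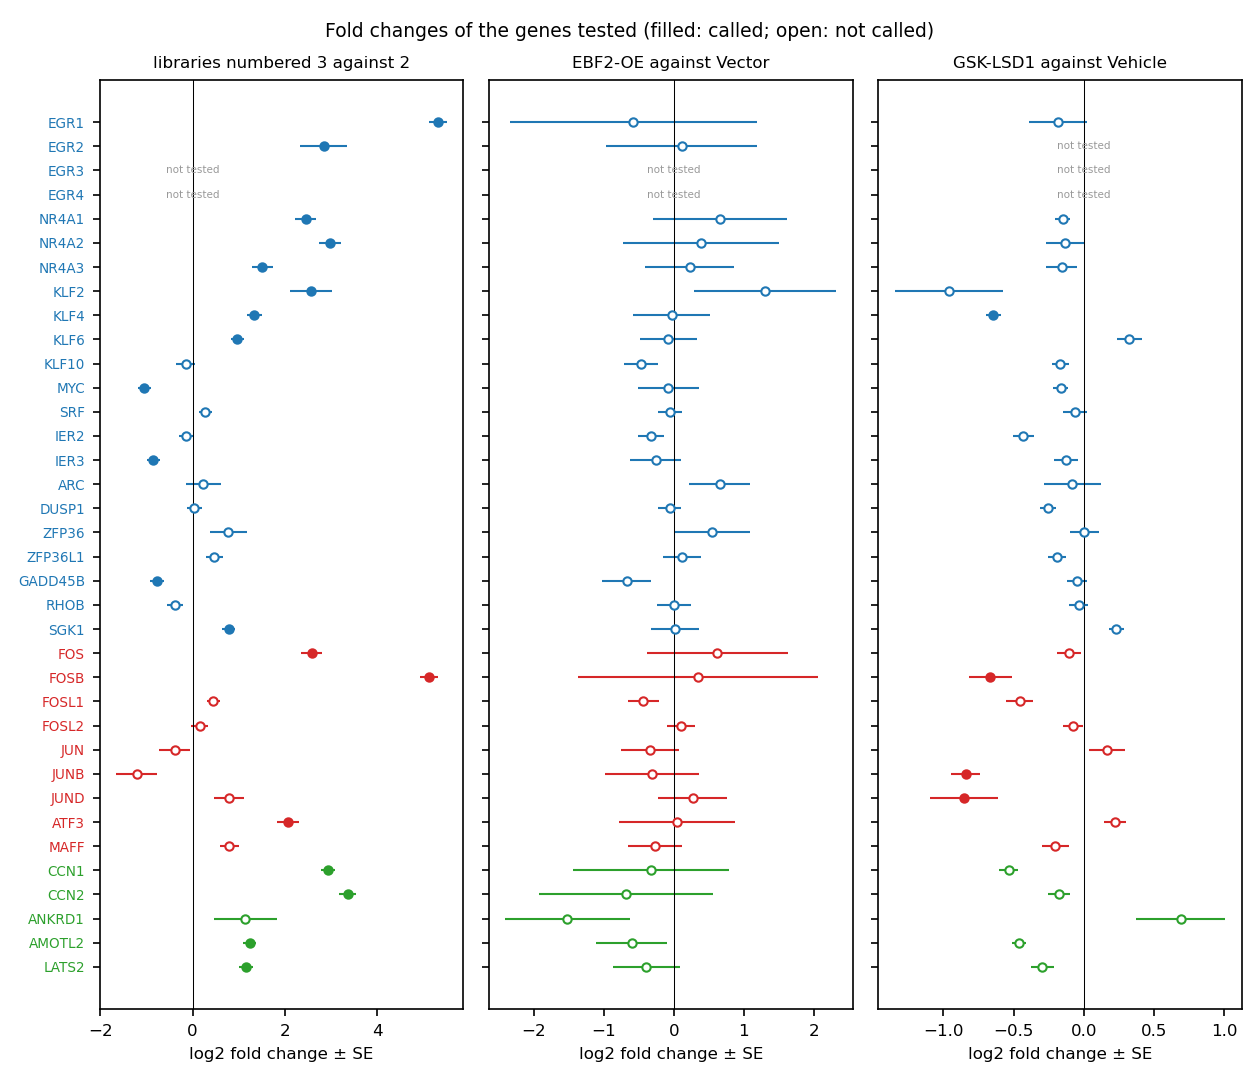
Log2 fold change ± SE of each gene of the set that was tested in the libraries numbered 3 against 2 (34 of 36), in EBF2-OE against Vector (34) and in GSK-LSD1 against Vehicle (33), each panel with its own scale and the others marked as not tested. Filled points are called, 19 in the left panel, 0 in the middle and 4 in the right. Error bars in the middle panel are wide for the genes that differ most in the left.

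Without the fold limit, 12 of the 33 genes passed an adjusted p-value of 0.05, 10 lower and 2 higher, against 18.7% of all genes. The YAP-type genes CCN1 (-0.53, SE 0.07), AMOTL2 (-0.46, SE 0.05) and LATS2 (-0.29, SE 0.08) were among those lower by less than 1.5-fold. CCN1 had 2683 and 2643 counts in Vehicle and 1659 and 1558 under GSK-LSD1. CCN2 did not pass (-0.18, SE 0.08, edgeR adjusted p = 0.138), with 1195 and 1165 counts against 939 and 888. FOSL1 (-0.46), IER2 (-0.43) and DUSP1 (-0.26) were also lower, and KLF6 (0.33) and SGK1 (0.23) were higher. EGR1, with 97 and 81 counts against 76 and 61, had -0.19 (SE 0.21), and FOS, with 666 and 795 against 576 and 608, had -0.10 (SE 0.08). None of the NR4A genes passed, all between -0.16 and -0.13.

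Of the surrounding lists, 3 of 17 further YAP targets were lower under GSK-LSD1 and 0 were higher. Over all genes 2.04% were called lower and 2.53% higher. IGFBP3 had 15806 and 15347 counts in Vehicle and 5126 and 5503 under GSK-LSD1, a log2 fold change of -1.36 (SE 0.07, edgeR adjusted p = 1.28e-06). FOXF2, a forkhead factor, had -0.73 (SE 0.11) and CCDC80, a secreted matrix protein, -0.64 (SE 0.07). JDP2, an AP-1 partner that represses, was lower at -0.61 (SE 0.08), 1 of 6 tested. The matrix protease gene MMP3 was higher at 0.67 (SE 0.17), 1 of 11 AP-1 targets, and AREG at 0.94 (SE 0.20), 1 of 7 EGF receptors and ligands. None of 17 Hippo and TEAD genes, 13 MRTF-SRF targets, 5 SRF cofactors, 11 ERK feedback genes and 8 heat shock genes was called. With 4.57% of all genes called, a lack of calls in lists this small does not set them apart. Among cell type markers, KRT7 (-0.69, SE 0.05) and the endothelial cadherin CDH5 (-0.97, SE 0.15; 172 and 180 counts against 77 and 80) were lower, and no fibroblast or leukocyte marker was called.

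The calls depended on how the spread was estimated. With DESeq2 only JUNB and KLF4 were called, and with all 8 libraries in 1 fit none was. Leaving out GSK-LSD1 1 or GSK-LSD1 2 left JUNB and KLF4.

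EBF2-OE against Vector gave no call in the set. Of 34 genes tested, 0 were called by edgeR, 0 had an unadjusted p-value under 0.05 and 0 were called by DESeq2, and 0% of all 15560 genes were called. EBF2 itself, at a log2 fold change of 10.75 (SE 1.55, edgeR adjusted p = 0.9998), was not called either. Both EBF2-OE libraries lay above both Vector libraries for 0 of the 34 and below them for 1, ANKRD1, against 12.1% and 10.8% of all genes. The median log2 fold change was -0.06. The libraries of each group lay far apart, and the SE reached 1.76 for EGR1 (log2 fold change -0.58) and 1.72 for FOSB (0.35).

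Values past 1.5-fold, none of them called, were KLF2 (1.30, SE 1.02), NR4A1 (0.66, SE 0.96), ARC (0.65, SE 0.44), FOS (0.62, SE 1.01), ANKRD1 (-1.52, SE 0.89), CCN2 (-0.69, SE 1.25), GADD45B (-0.68, SE 0.35) and AMOTL2 (-0.60, SE 0.51). ARC, a synaptic activity gene, had 65 and 48 counts in Vector and 54 and 119 in EBF2-OE. GADD45B had 1171 and 665 counts in Vector and 630 and 472 in EBF2-OE. All 5 YAP-type genes had values below 0, with a median of -0.60, and none passed the test. Values above 0 were held by 14 of the 34 genes of the set and by 7914 of all 15560 genes. Without the low-count filter 4 genes of the set were called, FOS and NR4A1 higher and AMOTL2 and CCN2 lower, against 0.291% of the 25455 genes in that fit. The direction of FOS, NR4A1, KLF2, CCN2 and AMOTL2 depended on which library was left out.

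The effect of GSK-LSD1 was compared with that of EBF2 in 1 fit over all 8 libraries. Of 34 genes tested, 0 differed past the limits by edgeR or DESeq2, and 0% of all 16558 genes did by edgeR. ANKRD1 alone passed 0.05 before adjustment, with a difference of 2.22 (SE 0.94, GSK-LSD1 minus EBF2-OE) and an edgeR adjusted p-value of 0.632. The difference was -1.11 (SE 0.68) for JUND, -0.52 (SE 0.80) for JUNB and -0.60 (SE 0.66) for KLF4, and without the low-count filter 7 genes of the set were called, against 1.35% of the 27234 genes in that fit.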

How the data were processed

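Poly(A)-selected RNA of 8 SW1990 libraries was sequenced in paired 150-base reads. HISAT2 (alignment to hg38) and HTSeq (gene counting) were run by the authors, who deposited raw counts and TPM, the count divided by gene length and scaled to the library total. The strand setting is not given in the sources used here. Counts were tested with edgeR 4.0.16 (R 4.3.3) by the two-sided quasi-likelihood test. TMM normalization, filterByExpr with a minimum count of 10 and Benjamini-Hochberg adjustment across every gene tested were used. Calls needed a fold above 1.5 and an adjusted p-value under 0.05. Each SE was derived from the test, as the absolute log2 fold change divided by the square root of its F statistic. CPM used TMM factors, and ratios of single libraries a prior count of 2. The number comparison had group and number as terms.

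The members, classes and lists were chosen with earlier results of these data known. Any member could be named, with statistics for those called or past 1.5-fold, and of each other list up to 6 called genes per comparison, EBF2 and up to 8 promoters. HSPA1A, NR4A1AS, IER3-AS1 and the marker genes were named after their values were seen, and values of further members were given where their group is described, outside this rule. Alternatives were DESeq2 1.42.0, its size factors, other filters, no fold limit, unadjusted p-values, all 8 libraries, a replicate block, no group term and leaving out each library. Scripts were tested on simulated data. Python 3.11.15, pandas 2.3.3, numpy 2.4.6 and matplotlib 3.10.9 were used.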

Additional observations from a re-analysis of the deposited data

Results flagged for a closer look

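For 5 of the 34 genes tested, against 8.86% of all 15560 genes, the 2 libraries of a group moved in opposite directions in Vector and EBF2-OE, with at least 1 pair past 1.5-fold, and the difference between the groups was not tested because each pair is 1 library against 1. The log2 ratio of library 3 to library 2 was -1.29 in Vector and 0.523 in EBF2-OE for JUN, a core AP-1 subunit. It was -0.108 and 1.69 for JUND, and -0.32 and 1.86 for the mRNA-decay factor ZFP36. It was -0.58 and 0.979 for ARC, and -0.645 and 0.354 for KLF10. In each case the EBF2-OE pair was the positive one. All genes leaned the same way past 1.5-fold. EBF2-OE 3 was higher for 12.2% and lower for 5.69%, and Vector 3 was higher for 6.14% and lower for 9.61%. EGR4, with too few counts to test, had -0.588 and 3.37.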

How the results depend on the processing

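The comparison of library numbers gave 16 to 22 calls in the set over the alternatives with a test, against 19. GADD45B was lost with DESeq2 and without the group term, and KLF2 without the group term. Between GSK-LSD1 and Vehicle the 4 calls became 12 without the fold limit, 2 with DESeq2, 0 in 1 fit of all 8 libraries, and 2 to 6 when a library was left out. Between EBF2-OE and Vector the 0 calls became 4 without the low-count filter and stayed at 0 with any library left out. For the difference of the effects they became 1 with unadjusted p-values, 7 without the filter and 0 to 1 with a library left out, the 1 being JUNB without Vector 2. The cause was not tested. With the replicate block the counts were 0 for EBF2-OE and 4 for GSK-LSD1. The library ratios of the groups correlated at 0.35 over genes for EBF2-OE and Vector and at -0.0135 for GSK-LSD1 and Vehicle, and with 2 pairs each the libraries share only a number.

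With a library left out, the log2 fold change of EBF2-OE ranged from -1.34 to 0.15 for AMOTL2, -2.90 to 2.09 for CCN2, -1.638 to 1.997 for FOS, -0.92 to 2.59 for KLF2 and -1.46 to 1.94 for NR4A1. The difference of the effects ranged from -2.10 to 1.54 for FOS, -4.85 to 3.50 for FOSB, -1.23 to 0.42 for KLF4 and -2.09 to 1.32 for NR4A1. In the comparison of library numbers, the value of JUND was -0.11 in the Vector pair alone and 1.68 in the EBF2-OE pair alone, and that of ZFP36 -0.32 and 1.85. The lone library of a group is assumed to vary like the others. Depth limited EGR2, EGR3, EGR4, KLF2 and ANKRD1, which had under 100 counts in every library.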
